A study of Homo sapiens with 2 samples.

Results

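EGFR, SEC61G, LANCL2 and VOPP1 are neighbouring genes on the short arm of chromosome 7, and their transcripts were examined in an RNA bisulfite sequencing (RNA BS-Seq) dataset of breast epithelial cells. The 4 genes were chosen by name with earlier results of these data known, so their ranks among all genes are description only. A cytosine was taken as a site of a gene when it lay on a same-strand exon of a GENCODE basic transcript of that gene and was covered by at least 10 reads, coverage being the sum of unconverted and converted counts. Of 5193 exonic cytosines in the 4 genes, 819 were kept in MCF10A against 2547 in MDA-MB-468, among 1584002 and 1271253 kept sites of the whole libraries. The choice of sites rests on coverage, so coverage is described here and not tested. MCF10A had 62 member sites at exactly 10 reads and 109 listed just outside at 9 reads, against 100 and 93 in MDA-MB-468. Listing began at 5 reads, where the members had 1466 sites in MCF10A against 3232 in MDA-MB-468.

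MCF10A is a non-tumorigenic, immortalised human mammary epithelial line, and MDA-MB-468 is a human breast cancer line long known to carry extra copies of EGFR. Each line was represented by 1 library of poly(A)+ RNA treated with sodium bisulfite at 60 degrees for 8 hours, and the labels name no other agent for either. Copy number was not measured in these libraries. The labels give DMEM for both lines, whereas the study's methods give different media, that of MCF10A containing epidermal growth factor, the ligand of EGFR. Line and library cannot be told apart, and a test per site compares 2 libraries, not 2 conditions.

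Bisulfite converts unmodified cytosine to uracil, whereas 5-methylcytosine (m5C) resists conversion and is read as cytosine. The methylation ratio of a site is its unconverted share of reads, and a cytosine that resists conversion for any other reason, such as base pairing, is counted the same way. EGFR encodes the epidermal growth factor receptor, a receptor tyrosine kinase that signals through the RAS-MAPK and PI3K-AKT pathways. SEC61G encodes the gamma subunit of the SEC61 translocon, the channel through which nascent proteins enter the endoplasmic reticulum. LANCL2 belongs to the lanthionine synthetase C-like family, and VOPP1 encodes a small membrane protein of vesicles. These neighbours are often co-amplified with EGFR in tumours.

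The genomic windows on which the results turn are given here in GRCh37, 5′ to 3′ on the transcribed strand, with capitals for cytosines that passed the m5C call in at least 1 line. The first window, chr7:55276688-55276716 on the plus strand, lies in the 3′UTR of EGFR (exon 28) and holds the run of 5 cytosines with the highest ratios of that gene. The second, chr7:55278123-55278152, lies farther downstream in the same exon and held 6 of the 13 EGFR calls of MCF10A, none of them called in MDA-MB-468. The third, chr7:55086809-55086838, lies in the EGFR 5′UTR and held a pair of calls in MDA-MB-468.
EGFR exon 28 run: ctggggggccacCCCCCagtgccactctc
EGFR distal exon 28: ctacacCtCagaCCgattaaaCgCaaatct
EGFR 5′UTR: tagccccggcggcCgcCgccgcccagaccg

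For SEC61G, on the minus strand, the 30-base window of each exon with the most cytosines kept in both lines is shown, since nearly every cytosine of exons 1 to 3 was called and no cytosine of exon 4 was. The windows are chr7:54826873-54826902 (exon 1), chr7:54825200-54825229 (exon 2), chr7:54823541-54823570 (exon 3) and chr7:54820051-54820080 (exon 4).
SEC61G exon 1: CagCaagCtCCagtgCtaCgtgtCCCtggC
SEC61G exon 2: CCattCggCtggttaaaagatgCaCtaaaC
SEC61G exon 3: CCagaagattgCCatggCaaCagCaatagg
SEC61G exon 4: catcttagagattggtgaacaagtgtgagg
Both calls of LANCL2 fell at chr7:55468957-55468985, plus strand, in its coding sequence (CDS), and 2 of the 4 calls of VOPP1 fell at chr7:55539141-55539170, minus strand, in its 3′UTR.
LANCL2 exon 5: aagcagtaCgttggagcagcCcatggcat
VOPP1 exon 5: tgaactaatcagagCCtcttgagaaattgt

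Kept sites held 60580227 counts in the MCF10A library and 42429746 in the other, each at a median of 18 reads, and 1.99% and 1.81% of these counts were unconverted. Of the epithelial markers, KRT8, KRT18 and KRT19 had kept sites in both lines, whereas CDH1 and EPCAM had none in MCF10A. Of the basal markers, KRT5 and KRT17 had kept sites in both lines, LAMB3 in MCF10A alone, and KRT14 and TP63 in neither. The mesenchymal markers VIM and CDH2 were kept in MCF10A alone, and FN1 had a level of 34.1 per exonic cytosine in MCF10A against 0.0131 in the other line, in counts scaled to 1000000 kept nuclear exonic counts. Of the luminal markers, GATA3 was kept in both lines, FOXA1 in MDA-MB-468 alone, and ESR1 and PGR in neither. Besides FN1, the other markers kept in both lines also differed in level. The log2 ratios of MDA-MB-468 over MCF10A were 3.57 (KRT8), 4.01 (KRT18), 10.6 (KRT19), 3.70 (KRT17), 5.70 (GATA3) and -1.11 (KRT5).

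All 4 genes were covered more deeply in MDA-MB-468. EGFR (ENSG00000146648), on the plus strand at 55086710 to 55279321 with 28 exons, had 750 kept sites at a median of 17 reads in MCF10A and 1843 at a median of 43 reads in MDA-MB-468. SEC61G (ENSG00000132432), on the minus strand at 54819943 to 54827667 with 4 exons, had 50 kept sites at a median of 25.5 reads and 61 at a median of 88 reads. LANCL2 (ENSG00000132434), on the plus strand at 55433030 to 55501430 with 9 exons, had no kept site in MCF10A and 331 at a median of 18 reads in MDA-MB-468. VOPP1 (ENSG00000154978), on the minus strand at 55503749 to 55640681 with 5 exons, had 19 kept sites in MCF10A, every one at exactly 10 reads, and 312 at a median of 25 reads in MDA-MB-468.

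**Figure D1:**
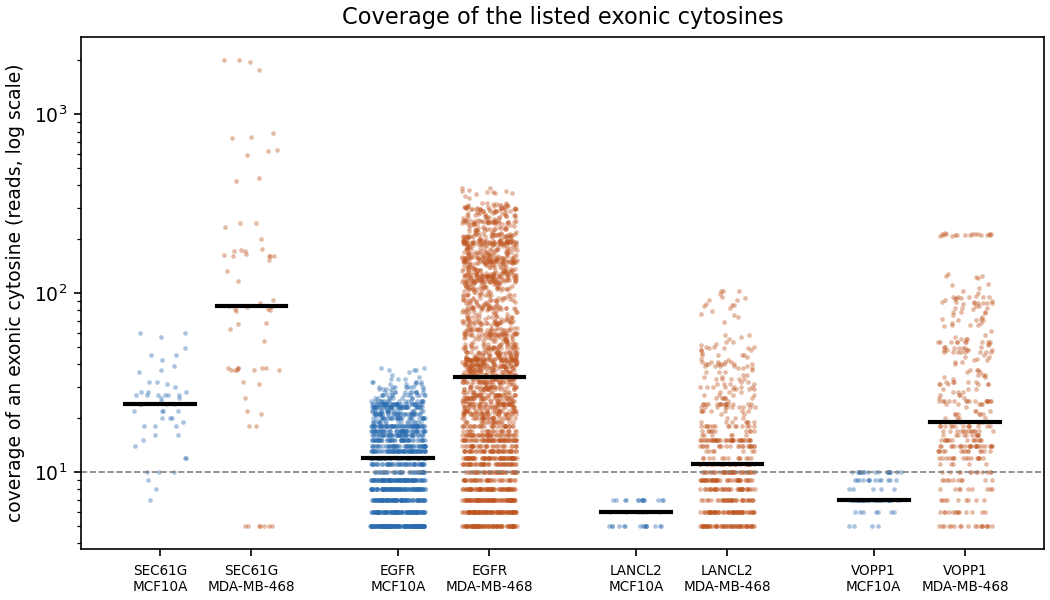
Coverage of each listed exonic cytosine (reads, log scale) of SEC61G, EGFR, LANCL2 and VOPP1 in MCF10A (blue) and MDA-MB-468 (orange), with black bars at the median of the listed sites and a dashed line at the minimum of 10 reads. No LANCL2 site of MCF10A reaches the line, and SEC61G in MDA-MB-468 reaches 2009 reads.

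The highest coverage of each gene was also reached in MDA-MB-468. The best covered EGFR site had 38 reads in MCF10A (55259518, CDS) and 389 in MDA-MB-468 (55086919, 5′UTR). The best covered SEC61G sites lay in exon 4, at 60 reads in MCF10A (54820077) against 2009 in MDA-MB-468 (54820080). In the latter line the best covered site of LANCL2 had 103 reads (55479737, CDS) and that of VOPP1 had 216 reads (55539668, 3′UTR). Ratios at these deeply covered positions were low in MDA-MB-468, at 0.257% for the EGFR site, 0.348% for the SEC61G site, 0.971% for the LANCL2 site and 0.463% for the VOPP1 site.

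To compare transcripts of different length, the level of a gene was taken as its counts at kept exonic cytosines, divided by the number of its exonic cytosines and scaled to 1000000 kept nuclear exonic counts per library. The level of EGFR was 0.0766 in MCF10A against 1.25 in MDA-MB-468, 16.4-fold higher (log2 ratio 4.03). The level of SEC61G was 0.124 and 2.29, 18.5-fold higher (log2 ratio 4.21). The level of VOPP1 was 0.00297 and 0.324, 109-fold higher (log2 ratio 6.77), with the MCF10A value resting on 190 counts. LANCL2 was at 0 in MCF10A against 0.182 in MDA-MB-468, so that no fold is given at this coverage minimum.

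Over 6781 protein-coding genes with kept sites in each line the median log2 ratio of levels was -0.10, 27.2% were at least 2-fold higher in MDA-MB-468 and 7.46% at least 8-fold higher. Of the 3 members with a ratio, 3 were at least 8-fold higher. Genes with a larger log2 ratio numbered 293 for EGFR, 257 for SEC61G and 36 for VOPP1. Within MDA-MB-468, 63 of 8089 genes had a higher level than SEC61G, 152 than EGFR, 913 than VOPP1 and 1628 than LANCL2. With sites from 5 reads the log2 ratios were 3.66 for EGFR, 4.15 for SEC61G, 4.94 for VOPP1 and 6.05 for LANCL2. With the median coverage of shared sites in place of summed counts they were 3.01 for SEC61G and 4.12 for VOPP1, and with sites from 20 reads that of EGFR was 5.14. There is no replicate library of either line, so none of these ratios has a replicate check. In bulk RNA, more transcripts per cell and more cells with the transcript cannot be told apart.

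The genes whose pair of levels lay nearest to a member, by Euclidean distance of the log2 levels of the 2 libraries, were TCIRG1, NUPR1 and TSTD1 for EGFR at distances of 0.18 to 0.27. For SEC61G they were IGFBP3, ENSG00000262302 and FOS at 0.13 to 0.22, and for VOPP1 they were SLC5A6, PWWP2B and MDK at 0.15 to 0.29.

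The higher coverage in MDA-MB-468 was not limited to exons. In MCF10A no intronic cytosine of any of the 4 genes reached 10 reads on the sense strand. In MDA-MB-468, EGFR had 12202 such intronic sites with 379909 counts, 71.5% of its sense-strand counts, and 11 of 4578 genes with at least 1000 counts had a higher intronic share. VOPP1 had 5959 intronic sites with 120215 counts, or 89.3%, and none of the 4578 genes had a higher share. LANCL2 had 475 sites with 8914 counts, or 51.8%. SEC61G had 11 sites with 183 counts, or 1.04%. Over all protein-coding genes pooled, 3.48% of sense-strand counts in MCF10A against 20.5% in MDA-MB-468 were intronic, and the median gene was at 0 in each line.

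**Figure D2:**
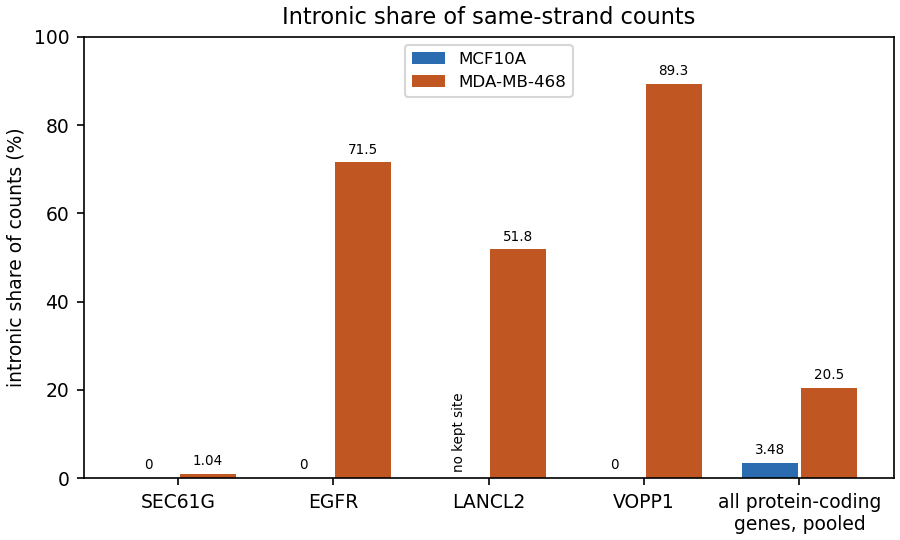
Intronic share (%) of sense-strand counts at cytosines of at least 10 reads in the 4 genes and pooled over all protein-coding genes, for MCF10A (blue) and MDA-MB-468 (orange). VOPP1 and EGFR stand at 89.3% and 71.5% in MDA-MB-468, SEC61G at 1.04%, and the members at 0 or without a kept site in MCF10A.

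Intronic cytosines of EGFR were 1.19% unconverted (95% Wilson interval 1.16 to 1.23), those of VOPP1 1.35%, those of LANCL2 1.94% and those of SEC61G 6.01% (3.39 to 10.4). Because neighbouring cytosines are read by the same reads, every interval given here covers counting error only.

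Along the chromosome, the plus strand of MDA-MB-468 carried 23111 to 108428 counts in each 25-kb bin across EGFR, and the minus strand carried 7581 to 48688 counts in each bin across VOPP1 except at its 3′ end, where the bin held 133. In MCF10A, counts across the same stretch were found in 5 bins of the plus strand over EGFR, with 244 to 5449 counts, and in 1 bin of VOPP1 with 190 counts. The bin with SEC61G held 19893 minus-strand counts in MDA-MB-468 and 1350 in MCF10A. In the same bin the plus strand held 581 and 1411 counts, so that the opposite strand of SEC61G was the more covered in MCF10A.

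**Figure D3:**
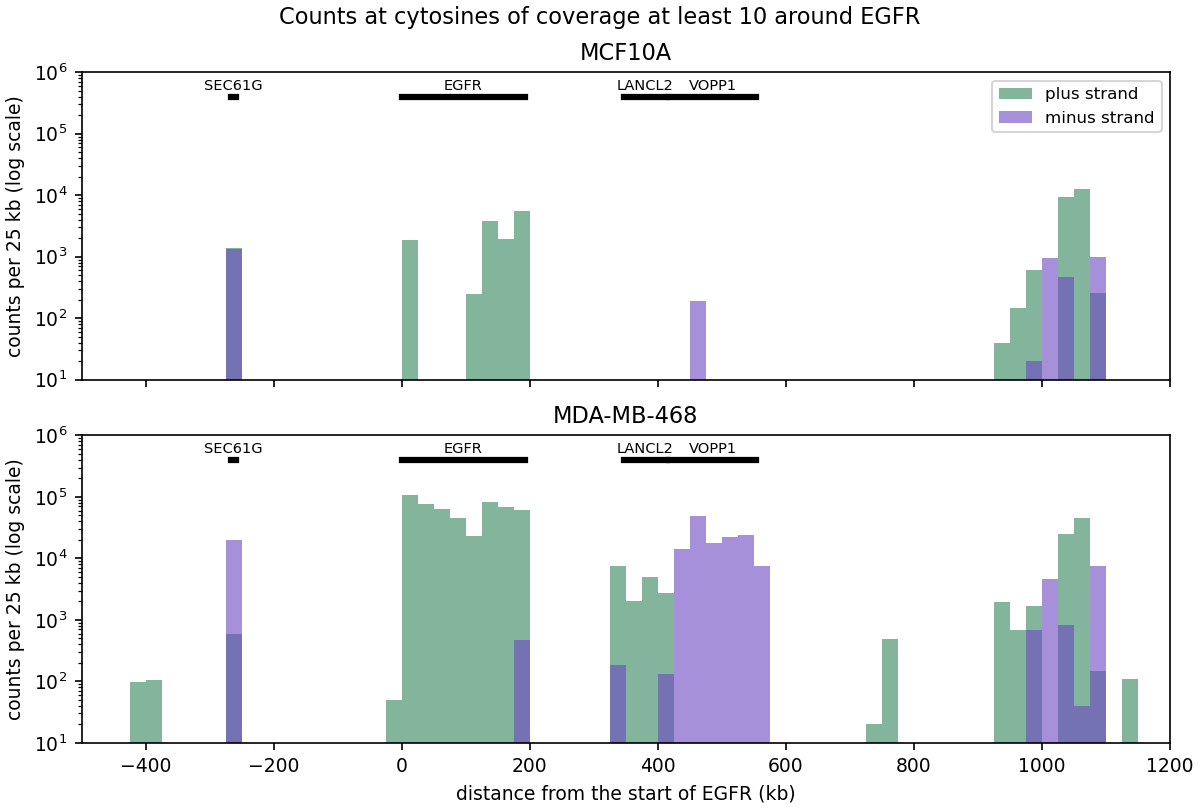
Counts per 25-kb bin (log scale) at cytosines of at least 10 reads against distance from the start of EGFR (kb), for the plus strand (green) and minus strand (purple) in MCF10A and MDA-MB-468, with the 4 genes as black bars. MDA-MB-468 has counts in every bin of EGFR, LANCL2 and VOPP1, whereas MCF10A has counts in separate bins that hold exons.

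Each site was then set against the nonconversion of its whole library by a 1-sided Fisher's exact test, with Benjamini-Hochberg adjustment over all kept sites of the library and a threshold of 0.05. In MCF10A this called 0.960% of all kept sites and 0.851% of the nuclear ones, and in MDA-MB-468 it called 0.840% and 0.742%. EGFR had 13 called m5C sites among 750 in MCF10A (1.73%) and 10 among 1843 in MDA-MB-468 (0.543%). SEC61G had 46 among 50 (92.0%) and 29 among 61 (47.5%). With a ratio of at least 0.2 also required, the 29 became 3. These calls keep sites of predicted pairing, which the study's methods filter out before calling. With such sites left out the EGFR counts became 7 and 4, and those of SEC61G 39 and 25. LANCL2 had 2 among 331 in MDA-MB-468 (0.604%). VOPP1 had 4 among 19 in MCF10A and none among 312 in MDA-MB-468.

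SEC61G was the gene of this group with the highest nonconversion. In MCF10A, 777 of 1350 counts were unconverted, or 57.6% (54.9 to 60.2), and in MDA-MB-468, 609 of 17442, or 3.49% (3.23 to 3.77). Among 5377 protein-coding genes with at least 1000 counts in MCF10A, whose median was 1.84%, no gene had a higher unconverted share than SEC61G. In MDA-MB-468, 240 of 4578 such genes had a higher share, against a median of 1.51%. Below 1000 counts, KRT19 was at 63.9% in MCF10A (318 of 498 counts) against 1.45% in MDA-MB-468. Of its 42 shared sites, 40 were lower in MDA-MB-468 past the threshold of the test between lines given below.

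The unconverted share of SEC61G was high in exons 1 and 2 and lowest in exon 4 in both lines. In MCF10A it was 73.0% in exon 1, 76.6% in exon 2, 58.1% in exon 3 and 4.87% in exon 4. In MDA-MB-468 it was 19.4%, 12.5%, 2.93% and 0.734%, in the same order. By region, all 17 kept 5′UTR sites and all 29 CDS sites were called in MCF10A and none of the 4 in the 3′UTR, whereas in MDA-MB-468 the calls numbered 14 of 18, 15 of 33 and 0 of 10. The first cytosine of the exon 1 window, at 54826902, had 18 of 24 reads unconverted in MCF10A against 7 of 26 in MDA-MB-468. In the exon 4 window the cytosine at 54820080 had 3 of 60 reads unconverted in MCF10A against 7 of 2009 in MDA-MB-468. All 11 cytosines of the exon 1 window were called in both lines, at 69.2 to 75.0% in MCF10A and 18.4 to 26.9% in MDA-MB-468.

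**Figure D4:**
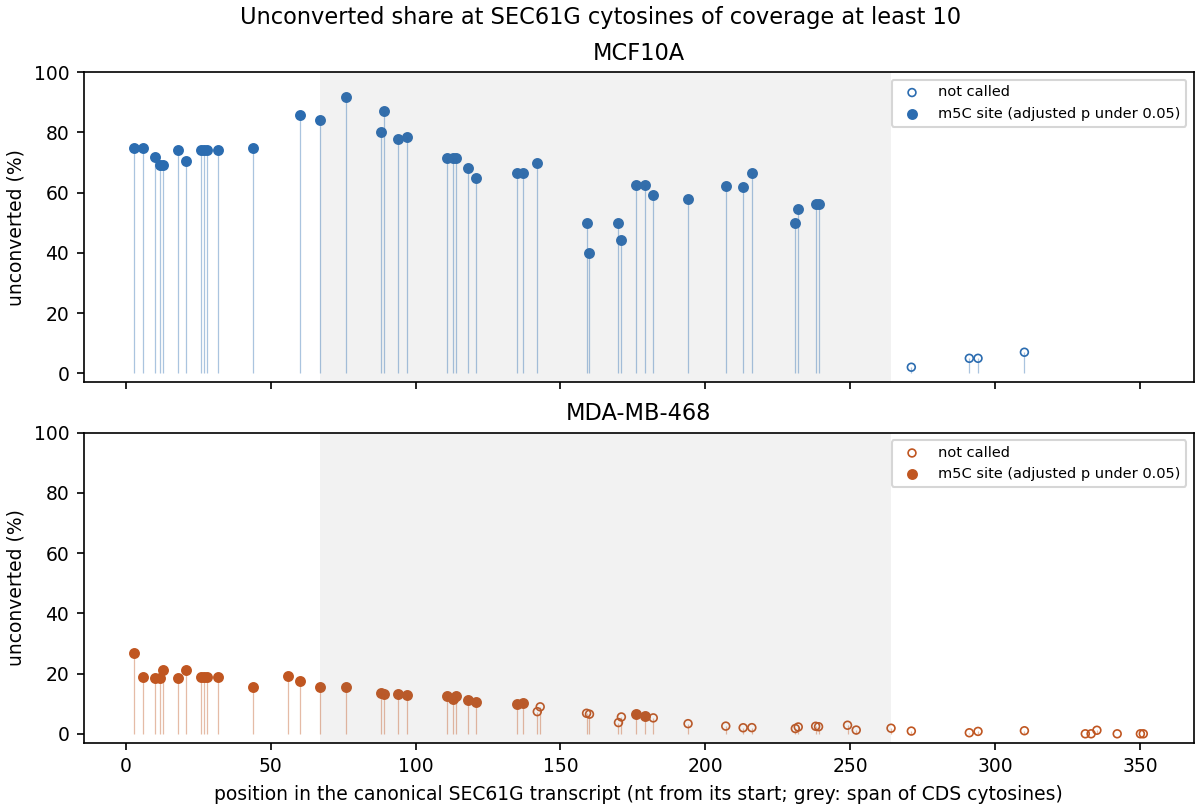
Unconverted share (%) of each SEC61G cytosine of at least 10 reads against its position in the canonical transcript (nt), in MCF10A and MDA-MB-468, with filled points for called m5C sites, open points for the rest and grey over the span of CDS cytosines. In MCF10A all points outside exon 4 lie between 40.0 and 91.7%, and in MDA-MB-468 the points decline from 26.9% at the start of the transcript towards 0.

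At the 50 SEC61G sites kept in both lines, all 50 were lower in MDA-MB-468. The difference was tested site by site with a 2-sided Fisher's exact test, adjusted over 812729 sites kept in both lines, of which 0.0691% were lower and 0.0202% higher in MDA-MB-468 past the threshold. For SEC61G, 33 of 50 sites were lower past the threshold and none higher. At those 33 sites the fall was at least 38.9 percentage points. The largest fall was at 54825266 (exon 2, CDS), with 22 of 24 reads unconverted in MCF10A against 18 of 117 in MDA-MB-468, a difference of -76.3 points (adjusted p = 3.53e-09 by Fisher's exact test). At 54825253 the ratio was 87.1% in MCF10A against 13.3% in MDA-MB-468 (adjusted p = 6.70e-12 by the same exact test). At 54823522 (exon 3, CDS) it was 62.2% and 2.55% (adjusted p = 6.73e-23 by the same exact test). Of the 50 sites, 28 were called in both lines, 18 in MCF10A alone and 0 in MDA-MB-468 alone.

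The counts behind these shares differed mainly in the converted reads. Over the 50 shared SEC61G sites the unconverted counts were 777 in MCF10A against 586 in MDA-MB-468, whereas the converted counts were 573 and 15795. In exon 1 the unconverted counts were 224 and 84 and the converted counts 83 and 349. In exon 3 the unconverted counts were 227 and 183 and the converted counts 164 and 5966. The median coverage ratio of MDA-MB-468 over MCF10A was 1.41 in exon 1, 5.75 in exon 2, 13.2 in exon 3 and 34.0 in exon 4. Exon 4, with the largest gain in coverage, had 11 and 59 unconverted counts beside 215 and 7700 converted counts.

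Cytosines on the strand opposite to SEC61G were also covered, and nearly all of their reads were unconverted. In MCF10A, 60 opposite-strand cytosines within SEC61G exons were listed at 5 reads or more, with 1448 of 1485 counts unconverted (97.5%). In MDA-MB-468, 47 were listed, with 786 of 797 unconverted (98.6%). By exon these were 218 of 221, 266 of 271 and 964 of 993 in exons 2, 3 and 4 of MCF10A, and 119 of 119, 62 of 62 and 605 of 616 in MDA-MB-468. None lay within the divergent transcript SEC61G-DT. Over the whole spans of all protein-coding genes, at 10 reads or more, 3.31% of opposite-strand counts in MCF10A against 3.18% in MDA-MB-468 were unconverted. Introns and genes that overlap on opposite strands were included there. At that minimum the opposite strand over the span of SEC61G was 97.5 and 98.1% unconverted. The part of these reads in the ratios of SEC61G was not tested. The annotation holds 1 gene with a name that begins with SEC61GP, the form used for SEC61G pseudogenes. No cytosine in it was listed in either line, and copies under other names were not searched for. Whether reads of any other copy were placed on SEC61G was not tested.

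The other genes of the translocon were read for comparison. SEC61A1, the pore-forming subunit, was 2.37% unconverted in MCF10A against 1.45% in MDA-MB-468, and SEC61B, the beta subunit, was 1.98% and 1.22%. The 9 genes with kept sites ranged from 1.38 (SSR4) to 3.33% (SSR1) in MCF10A and from 1.21 (SSR4) to 3.62% (SSR3) in MDA-MB-468. The SSR3 value rests on 17 of 470 counts and lay within the interval of SEC61G in that line (3.23 to 3.77). Over 10 translocon and associated genes, 9 had kept sites in each line. Called were 8 of 1838 sites in MCF10A (7 in SEC61A1 and 1 in SSR2) and 0 of 1290 in MDA-MB-468. Of all kept sites 0.960% and 0.840% were called. None of their 1218 shared sites differed past the threshold, where 0.0691% of all shared sites were lower and 0.0202% higher. Their levels had a median log2 ratio of 0.07 over 9 genes, with 1 at least 2-fold higher (SSR4) and 2 at least 2-fold lower in MDA-MB-468. Of all genes 27.2% were at least 2-fold higher and 31.2% at least 2-fold lower.

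The unconverted share of EGFR was higher in MCF10A than in MDA-MB-468. In MCF10A 662 of 13249 counts were unconverted, or 5.00% (4.64 to 5.38), and in MDA-MB-468 2520 of 151119, or 1.67% (1.60 to 1.73). Among genes with at least 1000 counts, 170 of 5377 had a higher share than EGFR in MCF10A, whereas 1838 of 4578 did in MDA-MB-468. The genes nearest to EGFR in level also had lower shares in MDA-MB-468. TCIRG1 was at 4.28% in MCF10A against 1.59% in MDA-MB-468, NUPR1 at 4.75 and 1.55%, and TSTD1 at 5.05 and 1.32%. The 10 chromosomal neighbours described below, pooled, were at 5.27 and 2.07%. With all called sites left out EGFR was 4.14% and 1.45% unconverted, and 7 exons exceeded 5% in MCF10A. By region the share was 3.76% in the 5′UTR, 3.01% in the CDS and 8.20% in the 3′UTR of MCF10A, and 1.37%, 1.21% and 2.49% in MDA-MB-468. Of the called m5C sites, 12 of 13 in MCF10A against 8 of 10 in MDA-MB-468 were in the 3′UTR. Kept sites were found in 20 of 28 exons in MCF10A and in 25 of 28 in MDA-MB-468.

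A single run of 5 adjacent cytosines in exon 28, at 55276700 to 55276704, held the highest ratios of EGFR in both lines. In MCF10A the 5 ratios were 64.0, 68.0, 72.0, 72.0 and 75.0% at 24 to 25 reads, and in MDA-MB-468 they were 39.7, 52.1, 50.4, 54.4 and 54.7% at 116 to 128 reads. All 5 were called in each line, with adjusted p of 7.76e-19 to 2.92e-23 in MCF10A and 3.14e-45 to 3.66e-82 in MDA-MB-468 by Fisher's exact test. The other 9 cytosines of the same window were at 7.69 to 12.5% in MCF10A and 1.46 to 3.03% in MDA-MB-468, so that the step from the run to its flanks was sharp in both. The window also holds a stretch of guanines just upstream, and all 5 cytosines of the run were paired in the predicted RNA structure. The part of pairing in their ratio was not tested.

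Pooled over the run, 87 of 124 counts were unconverted in MCF10A, or 70.2% (61.6 to 77.5), and 307 of 609 in MDA-MB-468, or 50.4% (46.4 to 54.4). All 5 ratios were lower in MDA-MB-468, with differences of -15.9 to -24.3 points, but no site differed past the threshold (adjusted p = 1 at each by Fisher's exact test). At 55276700 the difference was -24.3 points (-42.2 to -2.84) with an unadjusted p of 0.0440 by the same exact test. Without the run, EGFR was 4.38% unconverted in MCF10A against 1.47% in MDA-MB-468. The nearest opposite-strand cytosine listed, at 5 reads or more, was 2022 nt away in MCF10A and 1892 nt away in MDA-MB-468. Elsewhere in exon 28 the opposite strand had 77 of 80 listed counts unconverted in MCF10A against 505 of 511 in MDA-MB-468, and the part of these reads in the 3′UTR share was not tested.

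**Figure D5:**
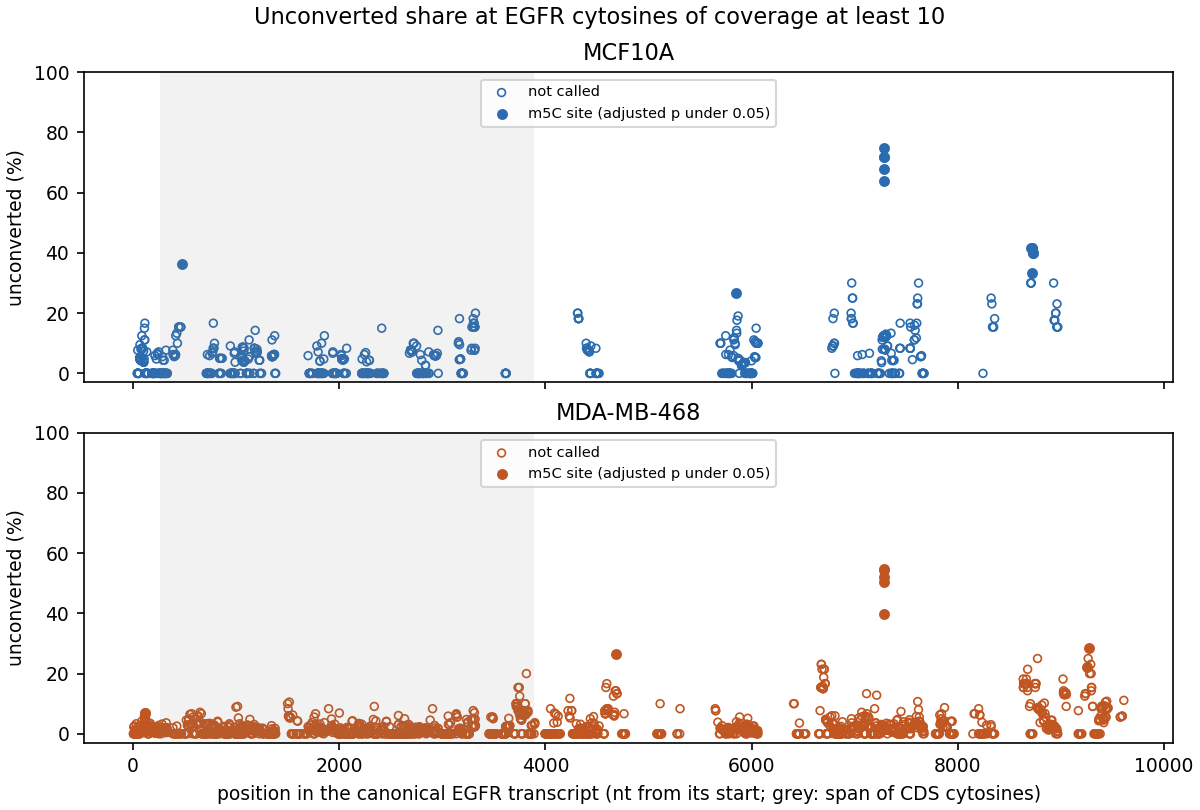
Unconverted share (%) of each EGFR cytosine of at least 10 reads against its position in the canonical transcript (nt), in MCF10A and MDA-MB-468, with filled points for called m5C sites, open points for the rest and grey over the span of CDS cytosines. The run of 5 cytosines in the 3′UTR stands at 64.0 to 75.0% in MCF10A and 39.7 to 54.7% in MDA-MB-468, above all other EGFR sites of the same line.

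The other EGFR calls were at lower depth or lower ratio. The distal exon 28 window, at 55278129 to 55278146, had 6 called cytosines in MCF10A at 33.3 to 41.7% and 10 to 12 reads. The 3 other kept cytosines of that window were just below this range in MCF10A and were not called. Each had a 95% interval of 10.8 to 60.3% there, so that the called sites did not stand apart from these neighbours. In MDA-MB-468 the 5 called cytosines that were kept had no unconverted read among 10 to 12, and the sixth had none among 9. A count of 0 among so few reads cannot exclude a sizeable ratio, and at 55278129 the 95% interval in MDA-MB-468 ran up to 24.2%. The difference there was -41.7 points (-68.0 to -8.69), with an unadjusted p of 0.0373 and an adjusted p of 1 by Fisher's exact test.

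The 5′UTR pair of EGFR, at 55086822 and 55086825, was called in MDA-MB-468 alone, at 6.78% of 177 reads and 6.74% of 178 reads. The 14 other cytosines of that window ranged up to 5.78% in MDA-MB-468 without a call, so that no clear step set the pair apart. In MCF10A the cytosines of the pair stood at 11.1 and 16.7% of 18 reads. They were not called there, although these ratios were higher than in MDA-MB-468. Single calls in MCF10A were at 55210101 (CDS, exon 2), with 4 of 11 reads, and 55275269 (3′UTR), with 4 of 15. Single calls in MDA-MB-468 were at 55274097, with 4 of 15 reads, 55278667, with 4 of 18, and 55278684, with 4 of 14, all in the 3′UTR. Over the 749 EGFR sites kept in both lines, 369 were lower in MDA-MB-468, 306 higher and 74 equal, and none passed the threshold in either direction. The median coverage ratio over these sites was 7.94, with a range of 0.917 to 22.3. Of them 5 were called in both lines, 7 in MCF10A alone and 2 in MDA-MB-468 alone.

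LANCL2 was measurable in MDA-MB-468, where 251 of 8291 counts were unconverted, or 3.03% (2.68 to 3.42). The share was 1.71% in the 5′UTR, 3.14% in the CDS and 2.96% in the 3′UTR. Exon 5 stood above the other exons at 12% (60 of 500 counts), the rest lying between 0.900 and 3.65%. Both called sites were in exon 5, at 55468965 with 5 of 24 reads (adjusted p = 0.00900 by Fisher's exact test) and at 55468977 with 4 of 11 (adjusted p = 0.00491 by the same exact test). The 4 other kept cytosines of that window were not called at 16.7 to 27.3%, so that the called pair did not stand apart from its neighbours.

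In MCF10A, LANCL2 had 35 listed cytosines at 5 to 7 reads, below the minimum, with 117 of 209 counts unconverted (56.0%). The same 35 cytosines had 48 of 1525 counts unconverted in MDA-MB-468 (3.15%). The MCF10A sites fell in exons 1, 3, 7 and 9 at 52.6, 80.0, 67.9 and 52.6%. Opposite-strand cytosines of exon 9 were listed in both lines, with 171 of 171 counts unconverted in MCF10A against 225 of 244 in MDA-MB-468, while those of exon 1 in MDA-MB-468 had 3 of 578. The part of the opposite-strand reads in the LANCL2 ratios was not tested.

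VOPP1 was kept in MCF10A at 19 cytosines of the 3′UTR, with 52 of 190 counts unconverted, or 27.4% (21.5 to 34.1). In MDA-MB-468 it was 1.74% (1.54 to 1.97), or 252 of 14474 counts, with 1.81% in the 5′UTR, 0.740% in the CDS and 1.85% in the 3′UTR. The 4 calls of MCF10A, at 55538682, 55538693, 55539155 and 55539156, each had 4 of 10 reads unconverted (adjusted p = 0.00418 by Fisher's exact test). In MDA-MB-468 the same cytosines had 1 of 31, 1 of 29, 4 of 31 and 2 of 31. With the called sites left out, the other 15 kept sites of MCF10A were still 24.0% unconverted. All 19 shared sites were lower in MDA-MB-468 and none passed the threshold. No opposite-strand cytosine within VOPP1 exons was listed in either line. With sites from 5 reads, the VOPP1 3′UTR of MCF10A was 24.8% unconverted (102 of 412 counts), against 1.14% in the 5′UTR and 1.15% in the CDS.

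On the same part of the chromosome, 10 neighbours (VSTM2A, SEPTIN14, ZNF713, MRPS17, NIPSNAP2, PSPH, CCT6A, SUMF2, PHKG1 and CHCHD2) were read for comparison. Of these, 6 had a level in both lines, and 6 of 6 were at least 2-fold higher in MDA-MB-468, with a median log2 ratio of 2.29, where 27.2% of all genes were. Called sites numbered 30 of 741 in MCF10A (4.05%), all in CCT6A, a subunit of the cytosolic chaperonin. In MDA-MB-468 they numbered 28 of 1057 (2.65%), with 11 in CCT6A and 17 in SUMF2. Over all kept sites 0.960% and 0.840% were called. None of the 717 shared sites of these neighbours differed past the threshold, where 0.0691% of all shared sites were lower and 0.0202% higher.

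The other genes of the EGFR pathway had level ratios on both sides of 0. Of 10 ERBB receptors and ligands, 5 had kept sites in MCF10A against 2 in MDA-MB-468. ERBB2, the partner receptor of EGFR, had a log2 ratio of 1.93, and ERBB3 was kept in MDA-MB-468 alone, with 11 of 315 kept sites called. Over this list 1 of 815 kept sites was called in MCF10A (0.123%), in TGFA, and 11 of 1223 in MDA-MB-468 (0.899%). Of all kept sites 0.960% and 0.840% were called. The ligands TGFA, AREG, EREG and HBEGF were kept in MCF10A alone. Of 18 signalling genes downstream of EGFR, 15 had a level in both lines, with a median log2 ratio of -0.42, 4 at least 2-fold higher and 7 at least 2-fold lower in MDA-MB-468, where 31.2% of all genes were at least 2-fold lower. The share of all genes at least 2-fold higher was 27.2%, as above. Of their kept sites 75 of 4965 were called in MCF10A (1.51%), where 0.960% of all kept sites were, and 35 of 3138 were called in MDA-MB-468 (1.12%), where 0.840% were. In addition, 2 of the 2538 shared sites of these signalling genes were higher in MDA-MB-468 past the threshold and none was lower. Both lay in MAP2K2, a kinase of the MAPK cascade. Of all shared sites 0.0202% were higher and 0.0691% lower. Of 5 feedback inhibitors of EGFR signalling, 3 had a level in both lines and 3 of 3 were at least 2-fold lower in MDA-MB-468, with a median log2 ratio of -2.96. LRIG1, which promotes degradation of EGFR, was kept in MDA-MB-468 alone, with 22 of 419 kept sites called. Over the 5 inhibitors, 9 of 1187 kept sites were called in MCF10A (0.758%), all in ERRFI1. In MDA-MB-468, 25 of 558 were called (4.48%), 22 in LRIG1 and 3 in ERRFI1. The shares over all kept sites were again 0.960% and 0.840%.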

How the data were processed

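Per the labels, poly(A)+ RNA of MCF10A and MDA-MB-468 (1 library each) was treated with bisulfite and sequenced. The authors deposited, for each cytosine, the counts of unconverted and of converted reads. The study's methods name Trim Galore and MeRanTK on hg19, with a limit on duplicate reads that can limit coverage, whereas the submitters' processing notes name Trim Galore and Bismark. The deposited counts start at a coverage of 5.

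Cytosines were assigned to same-strand exons of GENCODE 44 basic transcripts lifted to GRCh37. Kept sites had at least 10 reads and lay on an exon or the mitochondrial genome, with no filter on predicted pairing. A site was tested against the summed counts of all kept sites by a 1-sided Fisher's exact test, and between lines by a 2-sided one, with Benjamini-Hochberg adjustment over the whole table at 0.05. Intervals are 95% Wilson intervals, and those of differences combine Wilson bounds (Newcombe). Structure was predicted with RNAfold (ViennaRNA 2.7.2) at 70 degrees, gamma 0.1 and a pairing distance of 150 nt. Transcripts above 3000 nt were folded in windows of 2000 nt in steps of 1000 nt, which departs from the full-length folding planned. On simulated counts 97.5% (MCF10A, 1584002 sites) and 97.0% (MDA-MB-468, 1271253 sites) of 200 changed sites were recovered, and 87.5% of 200 between lines (812729 sites). The changed sites all had at least 20 reads, were given high ratios and were drawn independently. These rates therefore do not cover sites of fewer reads or lower ratios, such as the VOPP1 sites of MCF10A.

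Named sites are, per gene and line, the called sites (the 6 of lowest adjusted p where more), the 3 largest differences at 20 reads or more in each line and the site of highest coverage. The lowest and highest values of called runs, the window ends and the neighbouring cytosines were added after the values were seen. Members, lists and markers were chosen with earlier results of these data known. Analyses used Python 3.11.15, numpy 2.4.6, scipy 1.17.1 and pandas 2.3.3.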

Additional observations from a re-analysis of the deposited data

Results flagged for a closer look

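Counts on the strand opposite to member exons lie outside the m5C calls. Over all protein-coding genes, opposite-strand counts of at least 10 reads per site were 3.31% and 3.18% unconverted in the respective lines. The strand opposite to SEC61G exons held 1448 unconverted counts in MCF10A against 786 in MDA-MB-468. The strand opposite to EGFR exon 28 held 77 of 80 in MCF10A against 505 of 511 in MDA-MB-468. The strand opposite to LANCL2 exons held 171 of 171 in MCF10A against 228 of 822 in MDA-MB-468, of which exon 1 held 3 of 578 and exon 9 held 225 of 244. Neither library has an untreated control, and the origin of these reads was not tested.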

How the results depend on the processing

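Of 135 values recomputed under another setting, 104 stayed within the limits set for a change, 31 did not and 0 reversed. With a coverage minimum of 5 the m5C sites of MCF10A numbered 32 in EGFR and 28 in LANCL2, and those of MDA-MB-468 21 in EGFR and 11 in LANCL2, with 3 LANCL2 sites lower in MDA-MB-468. The unconverted share was then 5.84% (EGFR) and 15.6% (VOPP1) in MCF10A, and 1.75% (EGFR) and 3.52% (LANCL2) in MDA-MB-468, and the log2 level ratio of VOPP1 was 4.94. With a minimum of 20 the m5C sites numbered 6 in EGFR and 0 in VOPP1 of MCF10A and 1 in LANCL2 of MDA-MB-468, EGFR of MDA-MB-468 was 1.55% unconverted, and its log2 level ratio was 5.14. With predicted paired sites left out, EGFR had 7 and 4 m5C sites and shares of 4.25% and 1.46%. With a ratio of at least 0.2 also required, SEC61G of MDA-MB-468 had 3 m5C sites. With called sites left out the shares were 4.14% and 1.45% (EGFR) and 4.87% and 1.71% (SEC61G). At sites kept in both lines, MDA-MB-468 shares were 1.50% (EGFR) and 2.13% (VOPP1). Scaling to all deposited nuclear sites gave log2 level ratios of 3.27 (EGFR), 3.45 (SEC61G) and 6.01 (VOPP1), with the median of all genes at -0.86. Median coverage at shared sites gave 3.01 (SEC61G) and 4.12 (VOPP1). The causes of these changes were not tested. No paired analysis was possible because each line has 1 library and the labels carry no replicate numbers. Depth limits VOPP1 and LANCL2 in MCF10A most, since no site of either exceeded 10 reads.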
